A study of Mus musculus with 6 samples.

Results

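The 10 genes described here encode the TGF-beta ligands, their receptors and members of the latent TGF-beta binding protein family. With them is TGFBI, a matrix protein named for its induction by TGF-beta. They were chosen by symbol (Tgfb1, Tgfb2, Tgfb3, Tgfbr1, Tgfbr2, Tgfbr3, Ltbp1, Ltbp2, Ltbp3 and Tgfbi), and all 10 were among the 24062 symbols of the count table and among the 15222 genes kept for testing. The RNA came from aortic arch plaque, and the C57BL/6 mice of both groups lacked the low-density lipoprotein receptor. These mice clear cholesterol-rich lipoproteins poorly and form plaques on a fat-rich diet. All were kept on the high-fat diet TD88137 over 12 weeks, followed by 3 weeks of low-fat diet. The ABT263 group (3 libraries) received 100 mg/kg ABT263 into the peritoneum at 1 dose per day, which the labels date to week 1 of the low-fat period, and the control group (3 libraries) received vehicle. ABT263 (navitoclax) is an inhibitor of antiapoptotic proteins of the BCL-2 family that is used to kill senescent cells, and the series title asks how such cells affect repair by vascular smooth muscle. The labels give neither the age of the mice nor the number of dosing days, and they do not state that each library came from a separate animal, so the p-values measure the spread between these libraries, which may in part be technical.

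TGF-beta is secreted as an inactive complex in which its own propeptide wraps the growth factor, and a latent TGF-beta binding protein (LTBP) tethers that complex to fibrillin microfibrils and fibronectin in the matrix. Integrins, proteases or thrombospondin release the growth factor, which binds the type II receptor TGFBR2. TGFBR2 then phosphorylates the type I receptor TGFBR1, and SMAD2 and SMAD3 carry the signal to the nucleus. In the artery wall the pathway is known for driving contractile and collagen genes in smooth muscle and for restraining inflammation in plaque.

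Library totals ran from 62930547 to 110452098 counts. Every marker of contractile smooth muscle (10 of 10), macrophages (11 of 11) and endothelium (8 of 8) had counts in every library. At this depth that alone does not show that a cell type was present. All 8 skeletal muscle markers also had counts in every library, with a lowest count of 3. Some libraries stood apart. ABT263 replicate 2 had a summed level of the adipocyte markers of 4662 CPM (counts scaled to a common library size) against 160 to 357 CPM in the 5 other libraries. ABT263 replicates 2 and 3 had summed contractile markers of 16420 and 10240 CPM, where ABT263 replicate 1 had 2500 and the vehicle libraries 2730 to 3760 CPM. In ABT263 replicate 3 the skeletal muscle markers summed to 44.8 CPM against 4.52 to 6.86 CPM elsewhere. In vehicle replicate 2 the endothelial markers summed to 487 CPM against 1808 to 5058 CPM elsewhere, and Rn45s, the ribosomal RNA precursor, took 1.74% of counts against 0.304% to 0.553%. In bulk tissue, fewer cells of a type and less RNA per cell cannot be told apart.

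None of the 10 genes passed the threshold between the groups, and none had groups that did not overlap. Tgfb2, Tgfb3 and Ltbp1 shared a pattern, high in ABT263 replicates 2 and 3 and low in ABT263 replicate 1, while Tgfb1 was lowest in ABT263 replicate 2. The quasi-likelihood test of edgeR called 0 of the 10 genes at an adjusted p of 0.05 (adjusted over all genes tested), and over all genes it called 0%. At an unadjusted p under 0.05 it listed 0 of the 10, where the share over all genes was 8.38%. Non-overlapping groups were found for 0 of the 10 and for 12.0% of all genes. DESeq2 also called 0 of the 10 (1.06% of all genes it tested), and limma-voom called 0 genes in all. Log2 fold changes (ABT263 over vehicle) ran from -0.70 to 0.91 with a median of 0.10 and 6 of the 10 positive (50.1% of all genes were), beside a median of 0.0008 and quartiles of -0.24 and 0.27 over all genes tested. Counts of the 10 genes ranged from 1344 to 88868 per library, so counting error (2.73% at the lowest) was small beside the spread between libraries.

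**Figure D1:**
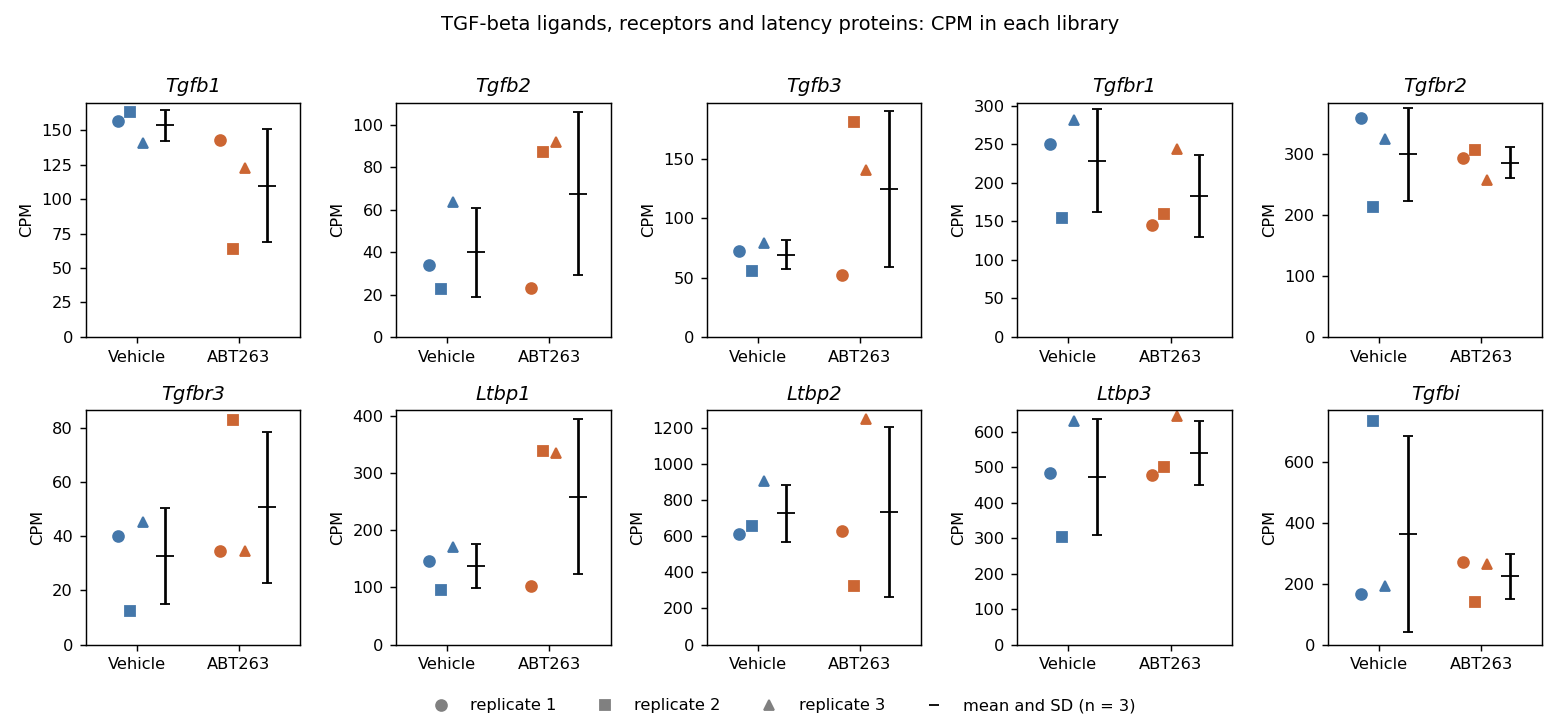
CPM of each of the 10 genes (vertical axes, starting at 0) in the 3 vehicle libraries (blue) and the 3 ABT263 libraries (orange), with the marker shape giving the replicate and the black bar the mean and SD of each group. The groups overlap in every panel, and for Tgfb2, Tgfb3 and Ltbp1 the ABT263 circle (replicate 1) sits below the vehicle mean while the other ABT263 points sit above all vehicle points.

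Of the ligands, Tgfb1 encodes the isoform made by many blood and vascular cells and stored in platelets. Tgfb1 (chromosome 7, 25687002 to 25705077, GRCm38, plus strand) stood at 157, 163 and 141 CPM in vehicle replicates 1 to 3 and at 143, 63.8 and 122 CPM in ABT263 replicates 1 to 3. The vehicle libraries lay close together, 2 of the ABT263 libraries lay below all of them, and the other lay between them. Means were 154 ± 11.3 CPM with vehicle and 109.7 ± 41.0 CPM with ABT263 (SD, n = 3 each), a log2 fold change of -0.49 (SE 0.31, edgeR adjusted p = 0.7125). In the library with the lowest Tgfb1, ABT263 replicate 2, the sum of the macrophage markers was also at its lowest. It was 7805 CPM, against 13920 and 14820 CPM in the other ABT263 libraries and 15060 to 23540 CPM with vehicle. Lyz2 alone made up 5106 CPM of the 7805. Mrc1 and Mertk were lowest in vehicle replicate 2 instead (42.9 and 88.1 CPM, against 95.2 and 121.6 CPM in ABT263 replicate 2). All 11 macrophage markers had a negative fold change. Summed markers of T cells, B cells and neutrophils were lower in every ABT263 library than in any vehicle library. The sums were 32.8 to 90.9 against 115 to 146 CPM for T cells (8 of 8 negative). They were 4.65 to 13.6 against 21.6 to 81.0 CPM for B cells (6 of 6) and 59.3 to 130.4 against 133 to 280.4 CPM for neutrophils (8 of 8). Singly, 7 of the 8 T cell, 5 of the 6 B cell and 3 of the 8 neutrophil markers had groups that did not overlap (12.0% of all genes did not). The summed chondrocyte markers were lower in every ABT263 library too, at 692 to 1230 against 1460 to 2610 CPM. Platelet markers (8 of 8 with a negative fold change) summed to 52.1 to 183 CPM with vehicle and 28.7 to 74.3 CPM with ABT263. Within the ABT263 group, replicate 2 had the highest T cell, B cell and platelet sums (90.9, 13.6 and 74.3 CPM). Its neutrophil sum (66.8 CPM) lay between those of replicates 1 and 3. ABT263 replicate 1 had the lowest T cell and B cell sums. The part of any of these cells in the level of Tgfb1 was not tested. Without ABT263 replicate 2 the log2 fold change of Tgfb1 was -0.21.

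Tgfb2 and Tgfb3 encode the other ligands, both made by mesenchymal cells and active in the development of the heart and vessels. Tgfb2 (chromosome 1, 186622792 to 186705989, minus strand) stood at 33.8, 22.4 and 63.4 CPM with vehicle and at 23.2, 87.3 and 92.1 CPM with ABT263. Tgfb3 (chromosome 12, 86056745 to 86079041, minus strand) stood at 72.9, 55.7 and 79.3 CPM with vehicle and at 52.6, 181 and 141 CPM with ABT263. For both genes ABT263 replicates 2 and 3 were above all vehicle libraries, and ABT263 replicate 1 was at or near the bottom of the 6. The mean of Tgfb2 was 39.9 ± 21.2 CPM with vehicle and 67.6 ± 38.4 CPM with ABT263 (log2 fold change 0.76, SE 0.59, edgeR adjusted p = 0.776). For Tgfb3 the means were 69.3 ± 12.2 and 125 ± 65.8 CPM (log2 fold change 0.85, SE 0.44, edgeR adjusted p = 0.642), so the SD with ABT263 exceeded the difference of means. Contractile smooth muscle markers, whose 10 members all had a positive fold change (median 1.76), were high in these libraries too, and their part in the levels of Tgfb2 and Tgfb3 was not tested. Without ABT263 replicate 2 the log2 fold change of Tgfb3 was 0.49, and without ABT263 replicate 3 that of Tgfb2 was 0.47. In GENCODE M21, exons of Tgfb2 overlap those of 1 gene on the opposite strand and exons of Tgfb3 those of 2. Without strand marking, reads from the shared bases could not be told apart. The annotation behind the counts is not given, so the effect on these counts is not known.

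The 250 bases before the start of transcription are printed for Tgfb1, Tgfb2 and Ltbp1 (the last is a latency protein) because Tgfb2 and Ltbp1 had alike profiles over the libraries and Tgfb1 had a different one. RefSeq windows (GRCm38.p6) were matched for 8 of the 10 genes. Sequences read 5′ to 3′ on the strand of the gene and end at the base before the RefSeq start, and capitals mark matches to the motifs searched.
Tgfb1, plus strand, chr7:25686752-25687001: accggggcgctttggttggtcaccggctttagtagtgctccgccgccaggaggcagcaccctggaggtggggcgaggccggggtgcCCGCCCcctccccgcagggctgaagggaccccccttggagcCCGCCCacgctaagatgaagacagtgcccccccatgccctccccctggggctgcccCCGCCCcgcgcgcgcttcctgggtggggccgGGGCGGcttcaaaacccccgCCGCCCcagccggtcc
Tgfb2, minus strand, chr1:186705990-186706239: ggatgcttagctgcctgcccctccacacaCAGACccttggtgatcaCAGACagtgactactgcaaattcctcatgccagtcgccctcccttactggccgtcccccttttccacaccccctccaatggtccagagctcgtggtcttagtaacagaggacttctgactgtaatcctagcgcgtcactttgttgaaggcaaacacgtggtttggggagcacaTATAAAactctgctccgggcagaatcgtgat
Ltbp1, plus strand, chr17:75005279-75005528: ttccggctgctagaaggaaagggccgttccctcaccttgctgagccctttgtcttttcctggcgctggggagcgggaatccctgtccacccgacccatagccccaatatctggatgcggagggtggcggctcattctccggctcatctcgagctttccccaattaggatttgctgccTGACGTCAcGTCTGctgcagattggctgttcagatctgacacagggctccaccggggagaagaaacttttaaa
Both strands were searched for the GC box GGGCGG, the TATA box TATAAA, the SMAD-binding element CAGAC, the cyclic AMP response element TGACGTCA, the AP-1 site TGANTCA and the CArG box bound by serum response factor. Tgfb1 held 5 matches to the GC box, a motif found in 32.7% of 32851 windows of this length, and its window was 75.2% G and C. Tgfb2 held no GC box and 1 TATA box that starts 31 bases before the start of transcription (12.4% of windows hold one), with 2 SMAD-binding elements (42.2% of windows) and 53.6% G and C. The printed window of Ltbp1 held 1 cyclic AMP response element, 73 bases before the start (1.5% of windows), and 1 SMAD-binding element. RefSeq gives Ltbp1 a second window, not printed, with 2 SMAD-binding elements and no cyclic AMP response element, and the stretch just after either RefSeq start was not found whole in the GENCODE transcripts of the gene. No AP-1 site (6.7% of windows) or CArG box (1.5%) matched in the 3 windows printed. A match describes the letters only, and nothing in these data measured binding.

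Within a library the ratio of 2 genes does not depend on how library sizes are scaled. The log2 ratio of Tgfb3 to Tgfb1 counts was -1.10, -1.55 and -0.83 with vehicle and -1.44, 1.51 and 0.20 with ABT263. ABT263 replicates 2 and 3 were above all vehicle libraries, and ABT263 replicate 1 was within their range. These ratios are not per length and compare libraries, not the levels of the genes. The mean ratio was -1.16 ± 0.36 with vehicle and 0.089 ± 1.48 with ABT263, a difference of 1.25 (exact two-sided permutation p = 0.3, adjusted p = 0.4 over the 4 ratios tested). The log2 ratio of Tgfb2 to Tgfb1 stood at -2.21, -2.86 and -1.15 with vehicle against -2.62, 0.45 and -0.41 with ABT263, a difference of means of 1.22 (exact permutation p = 0.3, adjusted p = 0.4). With 3 libraries against 3 the smallest p this test allows is 0.1. Without ABT263 replicate 2 the differences were 0.54 for Tgfb3 to Tgfb1 and 0.56 for Tgfb2 to Tgfb1.

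**Figure D2:**
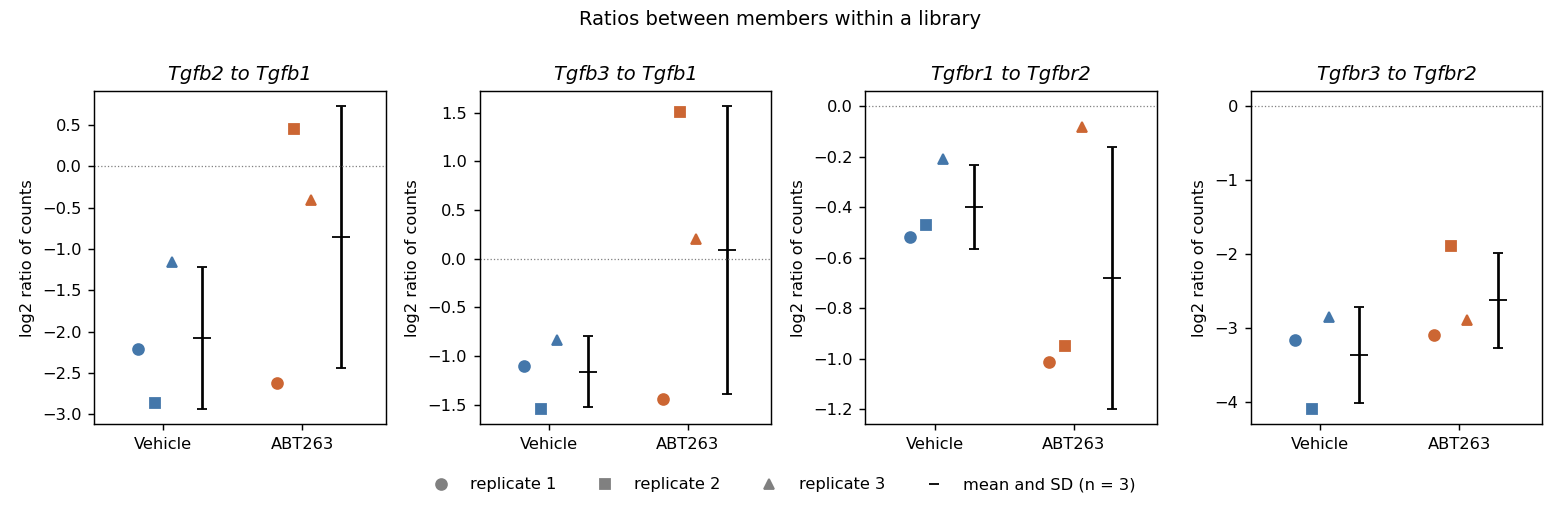
Log2 ratio of counts between pairs of genes within each library (vertical axes, 0 means equal counts), with vehicle in blue, ABT263 in orange, the marker shape giving the replicate and the black bar the mean and SD of 3 libraries. The groups overlap in all 4 panels, and ABT263 replicate 1 lies within the vehicle range for Tgfb2 to Tgfb1 and Tgfb3 to Tgfb1.

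Among the receptors, the signalling kinases Tgfbr1 and Tgfbr2 had fold changes no more than slightly above their standard errors, and the co-receptor Tgfbr3 varied most between libraries. Tgfbr2, the type II receptor that binds ligand first (chromosome 9, 116084293 to 116175360, minus strand), stood at 359, 213 and 325 CPM with vehicle and at 294, 307 and 257 CPM with ABT263. All ABT263 values lay within the vehicle range. Means were 299 ± 76.3 and 286 ± 25.5 CPM (log2 fold change -0.066, SE 0.25, edgeR adjusted p = 0.970). Tgfbr1, the type I receptor or ALK5 (chromosome 4, 47353222 to 47414931, plus strand), stood at 251, 154 and 281 CPM with vehicle and at 146, 159 and 243 CPM with ABT263. Vehicle replicate 2 and ABT263 replicates 1 and 2 formed the low side, and the other libraries were at or above 243 CPM. Means were 228.7 ± 66.5 and 183 ± 53.0 CPM (log2 fold change -0.32, SE 0.32, edgeR adjusted p = 0.837). The log2 ratio of Tgfbr1 to Tgfbr2 was -0.52, -0.47 and -0.21 with vehicle and -1.01, -0.95 and -0.081 with ABT263, which covers the vehicle range from both sides (difference of means -0.28, exact permutation p = 0.4, adjusted p = 0.4).

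Tgfbr3 encodes betaglycan, a co-receptor that presents ligand, TGF-beta 2 above all, to the type II receptor (chromosome 5, 107106570 to 107289629, minus strand). It stood at 40.2, 12.5 and 45.3 CPM with vehicle and at 34.6, 82.9 and 34.7 CPM with ABT263. Vehicle replicate 2 was far below and ABT263 replicate 2 far above the other 4 libraries, which lay between 34.6 and 45.3 CPM in both groups. Exons of Tgfbr3 overlap those of 1 gene on the same strand, so its counts are uncertain to that extent. Over the 6 libraries its log2 CPM spanned 2.73, more than 86.7% of all genes did. Means were 32.7 ± 17.7 and 50.7 ± 27.9 CPM (log2 fold change 0.64, SE 0.56, edgeR adjusted p = 0.8165). Without ABT263 replicate 2 the log2 fold change was 0.091, and without both replicates numbered 2 it was -0.31. The low library was the one with the lowest endothelial markers. Those (7 of 8 with a positive fold change) summed to 487 to 4890 CPM with vehicle and 1810 to 5060 CPM with ABT263. The high library had the highest sums of adipocyte and adventitial fibroblast markers. Its fibroblast sum was 6193 CPM, of which Gsn made up 3915 CPM, against 1156 to 2108 CPM elsewhere. Of the 10 fibroblast markers 8 were highest there, but Ly6a was highest in vehicle replicate 2 and Cd34 in ABT263 replicate 1. All 10 contractile markers were highest in that library too. Lep and Ucp1 were the adipocyte markers with a count of 0 in some library. The part of any of these cell types in the level of Tgfbr3 was not tested. The log2 ratio of Tgfbr3 to Tgfbr2 was -3.16, -4.10 and -2.84 with vehicle and -3.09, -1.89 and -2.89 with ABT263 (difference of means 0.74, exact permutation p = 0.3, adjusted p = 0.4). When 1 library was left out, the direction of Tgfbr2 turned without vehicle replicate 1 (log2 fold change 0.084) and without ABT263 replicate 3 (0.0019).

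The latency proteins Ltbp1 and Ltbp3 bind the latent complex of TGF-beta, whereas Ltbp2 is a microfibril protein of the same family that does not bind latent TGF-beta. Ltbp1 (chromosome 17, 75005568 to 75392512, plus strand) stood at 146.7, 96.0 and 171 CPM with vehicle and at 102, 339.9 and 336 CPM with ABT263. ABT263 replicates 2 and 3 lay close together, above all vehicle libraries, and ABT263 replicate 1 was near the lowest vehicle value. Means were 138 ± 38.2 and 259 ± 136 CPM, a log2 fold change of 0.91 (SE 0.48, edgeR adjusted p = 0.653), the largest of the 10 genes. The contractile markers given above were high in the same libraries. Without ABT263 replicate 2 the log2 fold change of Ltbp1 was 0.68, and without ABT263 replicate 1 it was 1.29. In that last fit the groups did not overlap for 4 of the 10 genes, namely Tgfb2, Tgfb3 and Ltbp1 above vehicle and Tgfb1 below, where 31.3% of all genes did not overlap. The share of the 10 genes is thus near the share over all genes. Without both replicates numbered 2 the groups did not overlap for 4 other genes of the 10, Tgfbi above vehicle and Tgfbr1, Tgfbr2 and Tgfbr3 below, where 38.9% of all genes did not overlap. Counts per gene symbol do not separate the long and short forms of Ltbp1, which start at different promoters.

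Ltbp3 (chromosome 19, 5740904 to 5758532, plus strand) stood at 482, 304 and 629 CPM with vehicle and at 478.5, 500.0 and 643 CPM with ABT263. The ABT263 libraries lay within or just above the vehicle range, and the single low value was vehicle replicate 2. Means were 472 ± 163 and 540.5 ± 89.4 CPM (log2 fold change 0.20, SE 0.32, edgeR adjusted p = 0.920), and without vehicle replicate 2 the log2 fold change was -0.042. Ltbp2 (chromosome 12, 84783212 to 84876532, minus strand) stood at 614, 656 and 906 CPM with vehicle and at 628, 325 and 1246 CPM with ABT263. The ABT263 libraries held both the lowest and the highest value of the 6. Means were 725 ± 158 and 733 ± 469.6 CPM (log2 fold change 0.015, SE 0.50, edgeR adjusted p = 0.997). Its direction turned without vehicle replicate 1 (-0.092), vehicle replicate 2 (-0.054) or ABT263 replicate 3 (-0.61). Exons of Ltbp2 and Ltbp3 overlap exons annotated on the opposite strand, so their counts may hold reads from that strand.

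Tgfbi encodes a secreted matrix protein that binds collagens and integrins and is made by macrophages as well as mesenchymal cells (chromosome 13, 56609523 to 56639562, plus strand). It stood at 165, 736 and 192 CPM with vehicle and at 270.3, 139.6 and 265 CPM with ABT263. Vehicle replicate 2 was far above every other library, and the other 5 lay between 139.6 and 270.3 CPM. Means were 364 ± 322 and 225 ± 73.9 CPM (log2 fold change -0.70, SE 0.63, edgeR adjusted p = 0.821). Without vehicle replicate 2 the sign turned, to a log2 fold change of 0.33. Of the 11 macrophage markers, 7 were highest in that library (Fcgr1 at 232 CPM against 62.4 and 49.4 in the other vehicle libraries). The other 4 were highest in vehicle replicate 1, where the sum was larger (23540 against 20580 CPM) with Lyz2 alone at 15540 CPM. Of those 4, Mrc1 and Mertk were at their lowest of all libraries in vehicle replicate 2 (42.9 and 88.1 CPM). Vehicle replicate 2 also had the highest summed T cell and neutrophil markers (146 and 280.4 CPM), and the part of these cells in the level of Tgfbi was not tested.

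**Figure D3:**
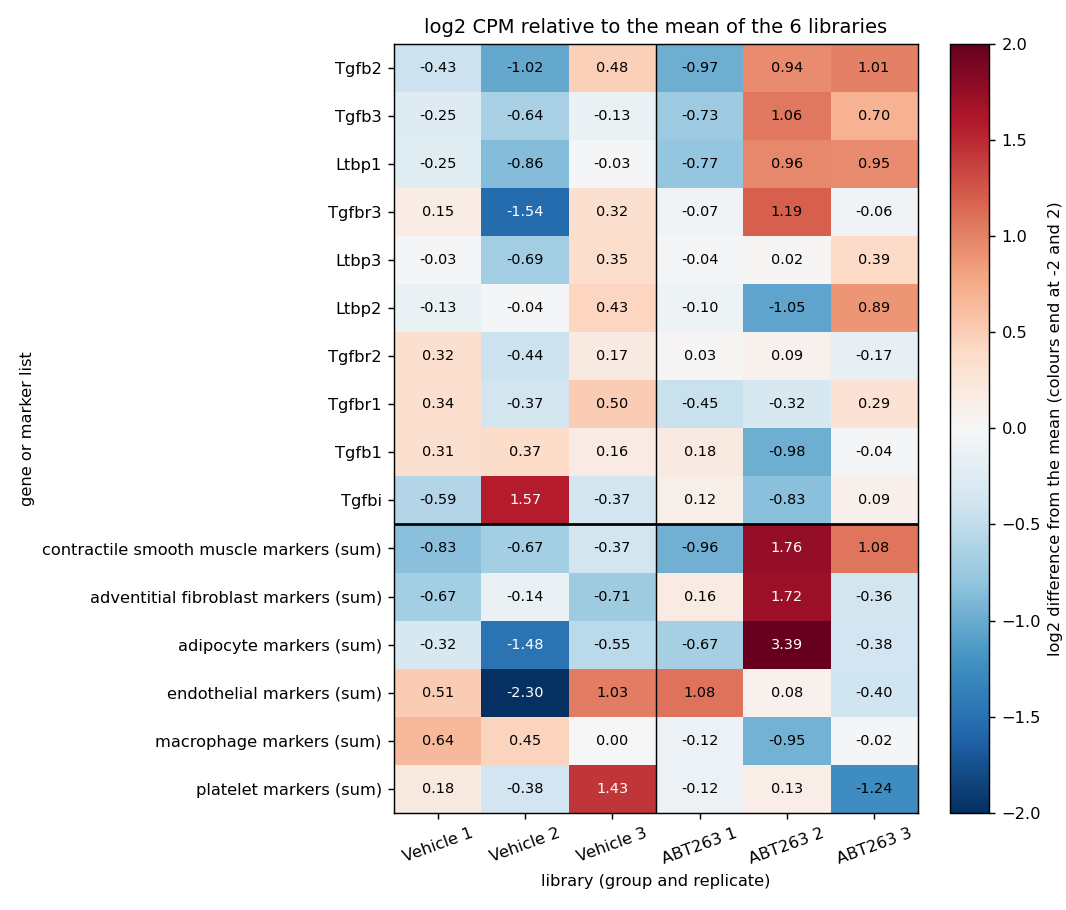
Log2 CPM of the 10 genes (upper rows) and log2 summed CPM of 6 lists of cell type markers (lower rows) in each library, as differences from the mean of the 6 libraries, with red above and blue below the mean. Tgfb2, Tgfb3 and Ltbp1 are between 0.70 and 1.06 in ABT263 replicates 2 and 3, the libraries in which the contractile markers are at 1.76 and 1.08.

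Levels of different genes were compared per length, as CPM per kilobase of all annotated exons. With vehicle the order from highest was Tgfbi (96.6 ± 85.3), Ltbp2 (88.6 ± 19.3), Ltbp3 (52.0 ± 17.9), Tgfbr2 (36.6 ± 9.32), Tgfbr1 (35.0 ± 10.2), Tgfb1 (30.5 ± 2.23), Tgfb3 (20.5 ± 3.61), Ltbp1 (12.9 ± 3.57), Tgfb2 (6.88 ± 3.65) and Tgfbr3 (4.99 ± 2.70), each as CPM per kilobase. The first place of Tgfbi rested on vehicle replicate 2, at 195 against 43.9 and 51.0 in the other vehicle libraries, which lie below every Ltbp2 value with vehicle. By this length, neighbours whose vehicle libraries did not overlap were Ltbp2 and Ltbp3, Tgfb1 and Tgfb3, and Tgfb3 and Ltbp1. All other neighbours overlapped in range, but within every library Ltbp3 exceeded Tgfbr2 and Ltbp1 exceeded Tgfb2. Tgfbr2, Tgfbr1 and Tgfb1 could not be put in order. With ABT263, Tgfb3 stood at 36.9 ± 19.4 CPM per kilobase and Tgfb1 at 21.7 ± 8.14. This order of the means, opposite to that with vehicle, did not hold in ABT263 replicate 1 (15.5 for Tgfb3 and 28.3 for Tgfb1), nor per kilobase of the longest transcript, where the ABT263 means were 36.9 for Tgfb3 and 42.6 for Tgfb1. With that length the vehicle means of Tgfb1, Ltbp3 and Ltbp1 were 59.7, 82.4 and 20.7. Tgfb1 then took place 4 and not 6, and Ltbp1 stood just above Tgfb3 (20.5).

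Likeness of profile was measured as the root mean square difference of log2 CPM over the 6 libraries, each gene centred on its own mean. Places and medians are over all 15222 genes, whereas the nearest genes named leave out clone and predicted-gene symbols. Tgfb3 and Ltbp1 were the closest pair of the 10, with a difference of 0.148 where the median over all genes was 0.756 from Tgfb3 and 0.824 from Ltbp1. Ltbp1 was the gene in place 7 from Tgfb3 and in place 15 from Tgfb2 (0.246). The nearest genes to Tgfb3 were Cdh11 (0.0612), Flna (0.110) and Fyco1 (0.134), those to Ltbp1 were Adamtsl3 (0.0911), Pcdh7 (0.109) and Fyco1 (0.138), and those to Tgfb2 were Itga9 (0.122), Col4a5 (0.125) and Cmya5 (0.185). The nearest genes to Tgfb1 were Plcg2 (0.0472), Nfam1 (0.0494) and Il3ra (0.0687), and the nearest of the 10, Ltbp2, came in place 4692 (0.481). For Tgfbr3 the nearest of the 10 was Tgfb3 (0.605, place 1673) and for Tgfbi it was Tgfb1 (0.654, place 2920). Each distance rests on 6 libraries and describes these libraries only.

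**Figure D4:**
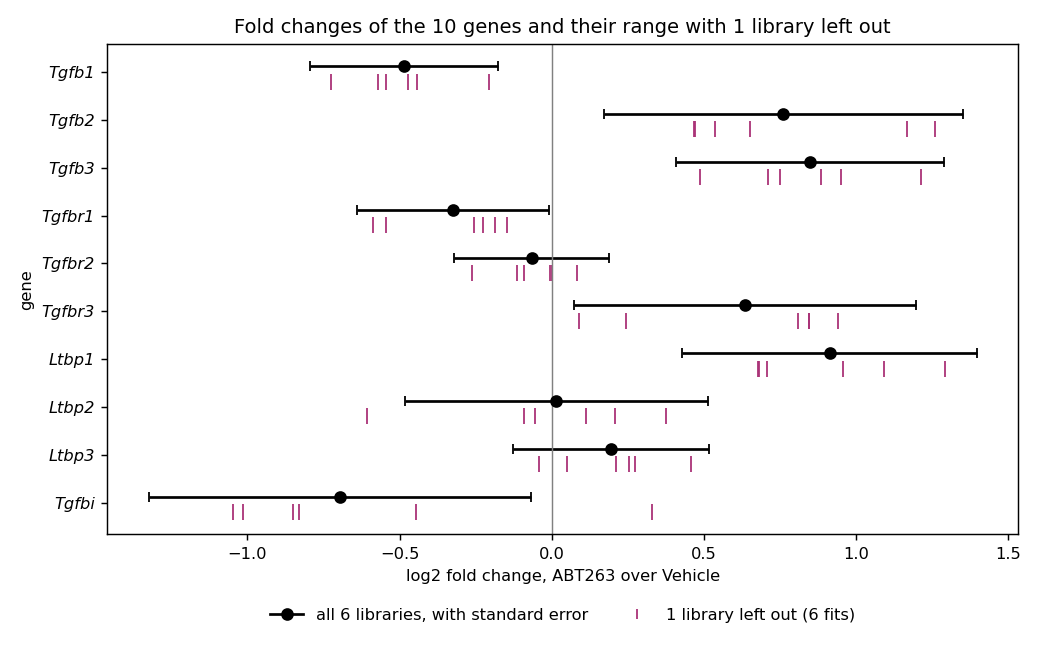
Log2 fold change (ABT263 over vehicle, horizontal axis) of each of the 10 genes from all 6 libraries with its standard error (black), and from the 6 fits that each left out 1 library (magenta ticks). Tgfb2, Tgfb3, Tgfbr3 and Ltbp1 stay above 0 and Tgfb1 and Tgfbr1 below 0 in these fits, while ticks of Tgfbr2, Ltbp2, Ltbp3 and Tgfbi lie on both sides.

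Other genes of the pathway were read from lists. Of 24 symbols for the activation and storage of latent TGF-beta, 21 were tested, 12 with a positive and 9 with a negative fold change (median 0.16). None was called, and 3 had an unadjusted edgeR p under 0.05, all on the higher side (4.70% of all genes did so on that side). These were Itga8, an integrin subunit of smooth muscle that binds the latency propeptide, Plat, tissue plasminogen activator, and Lrrc32 (GARP), a cell surface anchor of latent TGF-beta. Itga8 stood at 209, 96.4 and 220.5 CPM with vehicle and at 121, 1068 and 969 CPM with ABT263 (log2 fold change 2.04, SE 0.79), the libraries that were high in Ltbp1. Lrrc32 stood at 46.3, 28.5 and 44.8 CPM with vehicle and at 68.7, 73.6 and 55.2 CPM with ABT263 (log2 fold change 0.72, SE 0.24), with all ABT263 libraries above all vehicle libraries (5.68% of all genes had groups apart on that side). Plat had the same order of groups, at 29.2, 13.5 and 28.7 CPM against 34.3, 102 and 42.6 CPM (log2 fold change 1.33, SE 0.50), but 0.70 without ABT263 replicate 2 and 0.41 without both replicates numbered 2. The log2 fold change of Itga8 without both was 1.34. Nrros, which anchors latent TGF-beta on macrophages and microglia, had a log2 fold change of -0.58 (SE 0.29). Ltbp4, the fourth LTBP, had 0.28 (SE 0.66, or -0.17 without vehicle replicate 2), and Thbs1, the activator thrombospondin 1, had -0.64 (SE 0.62).

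Of 20 co-receptors, SMADs and regulators, all tested, 11 had a positive and 9 a negative fold change (median 0.078), and none was called. On the higher side 1 had an unadjusted edgeR p under 0.05, where 4.70% of all genes did so on that side. That gene was Tgfb1i1 (Hic-5), a focal adhesion protein of smooth muscle, at 58.1, 67.3 and 76.9 CPM with vehicle and 79.0, 155 and 118 CPM with ABT263 (log2 fold change 0.80, SE 0.28). Its groups did not overlap, as was found for 12.0% of all genes (5.68% on the higher side). The signal carriers Smad2 (-0.069, SE 0.17) and Smad3 (0.26, SE 0.20) had small log2 fold changes, as did the co-receptor Eng (endoglin, -0.096, SE 0.30). Smad7, the inhibitory SMAD that TGF-beta itself induces, had -0.36 (SE 0.33), and without vehicle replicate 3 it was 0.065. Bambi, a decoy receptor, had 0.99 (SE 0.43), Smurf2, a ubiquitin ligase of the receptors, 0.41 (SE 0.31) and Tgif1, a SMAD corepressor, -0.59 (SE 0.36).

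Of 25 symbols of genes known to be induced by TGF-beta, 24 were tested (Ccn2 is present under its older symbol Ctgf), 18 with a positive and 6 with a negative fold change (median 0.22), and none was called. The largest values belonged to the contractile genes Cnn1 (2.16, SE 0.71), Acta2 (1.49, SE 0.67) and Tagln (1.34, SE 0.60), which are also on the contractile marker list. Without ABT263 replicate 2 they were 1.45, 0.88 and 0.74. Cnn1, calponin, was the 1 gene with an unadjusted edgeR p under 0.05, where 4.70% of all genes had one on the higher side. Its levels were 82.4, 76.0 and 104 CPM with vehicle and 78.0, 699.7 and 397 CPM with ABT263. Ctgf, a matricellular protein, stood at 1957, 1929.8 and 2344 CPM against 1853, 2113 and 3618 CPM (log2 fold change 0.28, SE 0.37, or -0.068 without ABT263 replicate 3). Postn, periostin, had 0.70 (SE 0.42). For Ctgf, ABT263 replicate 1 was the lowest of the 6 libraries and ABT263 replicate 3 the highest.

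**Figure D5:**
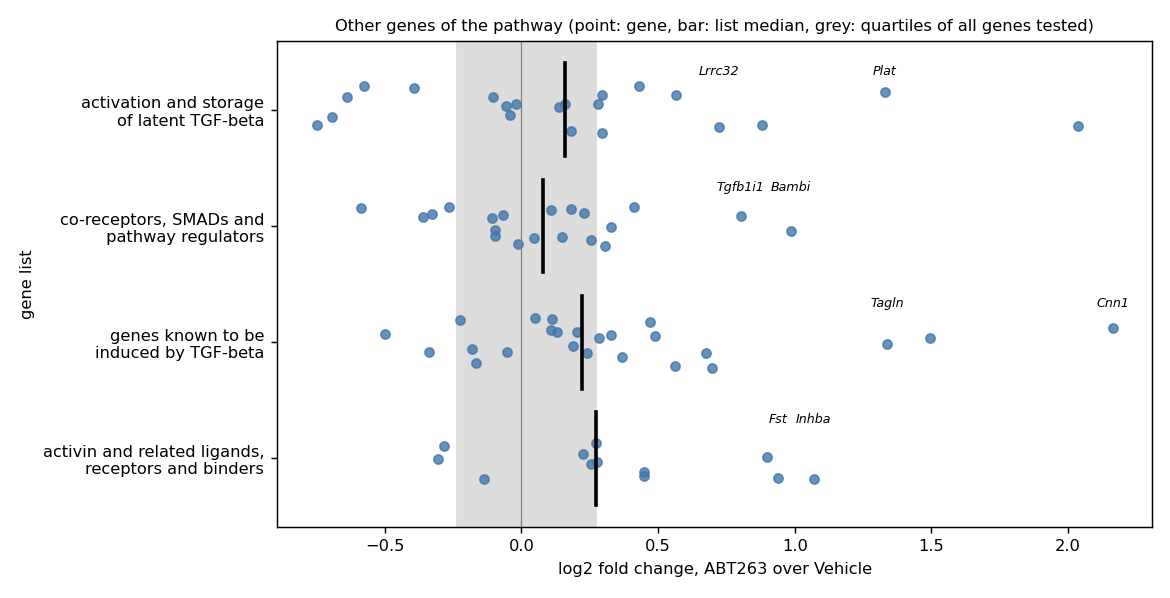
Log2 fold change (ABT263 over vehicle) of each tested gene in 4 lists of the pathway, with the list median as a black bar, the quartiles of all genes tested (-0.24 and 0.27) as the grey band, and the 2 genes of smallest p in each list named. The list medians of 0.078 to 0.27 lie within or at the edge of the grey band.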

How the data were processed

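Values are raw read counts as deposited, in 1 table of gene symbols by 6 columns, each bearing the title of 1 sample. Per the submitters' processing notes, TopHat2 2.0.14, Bowtie2 2.2.6, featureCounts 1.4.6 and build mm10 were used. For their roles, the annotation and the strand and multi-mapping settings, nothing is given in the sources used here. The TruSeq v2 kit in the labels does not mark strand. Groups come from the titles, and replicate numbers follow accession order and only name libraries.

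Genes were kept by filterByExpr (minimum count 10, minimum total 15). Libraries were scaled by TMM, and edgeR 4.0.16 (R 4.3.3) fitted its quasi-likelihood test on the group alone, with Benjamini-Hochberg adjustment over 15222 genes and a threshold of 0.05. The SE is the log2 fold change over the square root of the F statistic. DESeq2 1.42.0, limma-voom (limma 3.58.1), RLE factors, library totals alone, no filter and fits with libraries left out were the alternatives. Ratios used 0.5 added counts and exact permutation tests, and likeness used log2 CPM with a prior count of 2. The code was tested on simulated data. Positions and lengths are from GENCODE M21 (GRCm38, the assembly mm10 denotes), promoter windows from RefSeq.

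Named genes are the 10 genes, the 4 of smallest p per pathway list and 8 more named outright, not all of which are reported here. The genes and lists were chosen with earlier results of these data known.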

Additional observations from a re-analysis of the deposited data

How the results depend on the processing

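No paired analysis was possible because the labels give the groups no shared replicate numbers. The count of genes called was 0 under every edgeR setting and with limma-voom, and 153 with DESeq2, none of them among the 10 genes. Under other scalings and tests, Ltbp2 turned to a log2 fold change of -0.18 with limma-voom, and with library totals alone (which moved the median of all genes by 0.0911) Tgfbr2 turned to 0.032 and Smad2 to 0.023. Without both replicates numbered 2, Tgfbr3 was -0.31, Tgfbi 0.58, Ltbp4 -0.45, Tgif1 0.0023 and Smad3 -0.0049, and 4 of the 10 genes had groups that did not overlap (38.9% of all genes did not). Over the 6 fits that left out 1 library, this count ranged from 0 to 4, where 17.4% to 31.3% of all genes did not overlap. In those fits the log2 fold change ranged from -0.26 to 0.084 for Tgfbr2, -0.61 to 0.37 for Ltbp2, -0.042 to 0.46 for Ltbp3, -1.05 to 0.33 for Tgfbi, -0.17 to 1.05 for Ltbp4, -0.31 to 0.21 for Eng, -0.61 to 0.065 for Smad7 and -0.068 to 0.46 for Ctgf. Tgfb1, Tgfb2, Tgfb3, Tgfbr1 and Ltbp1 kept their direction under every alternative run, and the 4 ratios kept theirs in every fit with a library left out. The cause of these turns was not tested. The lowest count of the 10 genes was 1344, which has a counting error of 2.73%.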

Other observations

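Activins are relatives of TGF-beta that signal through the same SMAD2 and SMAD3. Of 14 symbols for activin and related ligands, receptors and binders, 12 were tested, 9 with a positive and 3 with a negative fold change (median 0.27), and none was called. Fst, follistatin, a secreted inhibitor that binds activins, stood at 6.18, 7.69 and 6.32 CPM with vehicle and at 9.81, 16.6 and 12.3 CPM with ABT263 (log2 fold change 0.94, SE 0.27, edgeR unadjusted p = 0.0110). All 3 ABT263 libraries were above all vehicle libraries, ABT263 replicate 1 among them, unlike for Tgfb2, Tgfb3 and Ltbp1. It was the 1 gene of the list with an unadjusted p under 0.05 (4.70% of all genes had one on the higher side) and the 1 with groups that did not overlap on that side (5.68% of all genes). Inhba, the subunit of activin A, stood at 11.5, 6.73 and 11.3 CPM with vehicle and at 8.65, 17.1 and 36.1 CPM with ABT263 (log2 fold change 1.07, SE 0.53). Leaving out ABT263 replicate 3 gave 0.39 for Inhba. Fstl3, a further activin binder, had 0.90 (SE 0.50), and Acvr2a, a type II activin receptor, had 0.45 (SE 0.29).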
